A study of Mus musculus with 12 samples.

Results

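The enzymes of glycolysis and of the tricarboxylic acid (TCA) cycle were followed in WT and miR-210 KO macrophages before and after IL-4. The group held 38 genes, taken by name from a list and matched through Ensembl identifiers to 38 of the 56941 genes in the count tables. Of these, 17 belong to glycolysis, 17 to the entry of pyruvate into mitochondria and the TCA cycle, and 4 to branches of citrate and malate use. There were 12 RNA libraries in 4 groups of 3, which combined genotype (WT or miR-210 KO) with state (M0 or M2). Bone marrow of C57BL/6J mice was depleted of other cells to leave monocytes, which became M0 macrophages over 7 days in high-glucose DMEM holding 20% FBS and 30% supernatant of L929 fibroblasts as a source of M-CSF. To obtain M2 macrophages, IL-4 was then added at 20 ng/mL for 72 hours, while M0 controls received none. The KO allele was made by crossing mice with a floxed miR-210 to mice with Gata-1 Cre, and KO and WT animals came from matings of heterozygotes, so the deletion was not limited to macrophages. Animal age is not given in the sources used here, and no source ties a library to an animal, so p-values measure the spread between these libraries, which may be technical. Each group carries its own batch name in the labels, and batch and group cannot be told apart.

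Library totals ran from 7930525 to 10167695 counts, and replicate libraries always differed beyond counting noise. The Mir210 gene itself (chr7:140801297-140801406, GRCm39) had 1 to 5 counts in each WT library, while all 6 KO libraries had 0, which allows up to 3 counts. Macrophage markers (7 genes, Lyz2 and Cd68 among them) summed to between 8658 and 9868 CPM (TMM-normalized counts, scaled to the library size) in the M0 libraries and between 7298 and 8024 CPM in the M2 libraries. Lyz2 was the largest part of these sums, and the members did not move alike with IL-4. In WT, Fcgr1 went from 499 ± 95.6 to 63.4 ± 4.47 CPM and Mertk from 203 ± 9.45 to 80.1 ± 5.29 (mean ± SD, n = 3). Lyz2 also fell, and Adgre1 went from 1023 ± 77.7 to 858 ± 13.0, a change not called under the limits given below. Itgam went from 279 ± 38.1 to 425 ± 26.0, and Cd68 and Csf1r changed less. Fcgr1 in miR-210 KO went from 335 ± 18.2 to 55.4 ± 13.6 CPM. The T cell markers Cd3e and Cd3g were at 0 in all 12 libraries, and those of granulocytes, erythroid cells and fibroblasts each summed to at most 4.64 CPM. Arg1, a marker of IL-4 activation, rose from 41.1 ± 8.54 to 1885 ± 75.8 CPM in WT and from 73.6 ± 10.9 to 1930.0 ± 71.3 CPM in miR-210 KO (mean ± SD, n = 3).

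Glycolysis turns glucose into pyruvate in the cytosol, with a small yield of ATP. Pyruvate is then reduced to lactate or enters mitochondria, where pyruvate dehydrogenase makes acetyl-CoA and the TCA cycle oxidizes it to feed the respiratory chain. In macrophages, glycolysis is known for its part in inflammatory activation and oxidative metabolism for its part in the response to IL-4, and citrate and itaconate are known as signals as well as fuels. MiR-210 is a microRNA induced by hypoxia that is known to act on mitochondrial genes.

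MiR-210 pairs with its targets through the seed, bases 2 to 8 of the mature strand, shown in capitals in the RefSeq sequence because it sets which transcripts could be direct targets.
mmu-miR-210-3p: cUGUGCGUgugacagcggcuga
The complement of this seed, ACGCACA, was searched for in the 3′ untranslated region of the canonical transcript of each gene. It was found in 0 of the 38 enzyme genes, beside 725 of 20827 protein-coding genes (3.48%). This says only that these letters are missing from those regions.

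Levels are given as CPM after TMM normalization over all 12 libraries. Log2 fold changes were fitted with edgeR's quasi-likelihood test to the counts of each pair of groups, are followed by their standard error after ±, and carry p-values adjusted by the Benjamini-Hochberg method over all genes tested. Calls required an adjusted p under 0.05 together with a log2 fold change beyond 0.263 in either direction. For M2 against M0, calls were limited to protein-coding genes whose normalized counts averaged over 10. Fewer cells of a type and less RNA per cell cannot be told apart in these bulk samples.

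The levels per kilobase of canonical transcript ran from 519 for Gapdh to 0.497 for Pcx in WT M0. The order in WT M0 began with Gapdh at 519 ± 2.24 CPM per kilobase (mean ± SD, n = 3), Aldoa at 486 ± 22.3, Pkm at 379.6 ± 9.32, Ldha at 224 ± 3.41 and Tpi1 at 113 ± 4.57, whose libraries did not overlap between neighbours in that order. Further down, the libraries of Eno1 and Idh1 overlapped, as did those of Gpi1 and Pgk1. Within the TCA cycle, Cs (citrate synthase) was highest at 51.5 ± 1.28, followed by Idh3b at 41 ± 3.11, and at the low end the libraries of Aldoc overlapped those of Pfkm above it and of Ldhb below it. Together the 38 genes took between 0.515% and 0.638% of the counts of a library. The glycolysis genes took 0.393% ± 0.0108 in WT M0, 0.451% ± 0.0307 in miR-210 KO M0, 0.444% ± 0.0179 in WT M2 and 0.422% ± 0.0105 in miR-210 KO M2 (SD, n = 3). The authors removed duplicate reads, which can reduce the values of highly expressed genes, and copies of several glycolysis genes lie elsewhere in the genome. Of the 50-base stretches of the canonical transcript, 85.7% also occur in another counted gene for Aldoa, 82.5% for Gapdh, 68% for Pgk1, 63.6% for Eno1, 40.9% for Pgam1 and 34.2% for Pkm, so reads of these genes could be assigned to a copy or dropped. The shares were 30.1% for Pdhb, 22.9% for Ldhb, 21.4% for Suclg2 and 19.1% for Gpi1 and for Ldha, and at most 7.51% (Tpi1) for the other members.

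IL-4 changed the enzyme RNAs in both directions, with Pfkp and Idh1 the largest rises and Suclg2, Pcx and Pfkl among the largest falls in both genotypes. In WT, 13 of the 38 genes rose and 6 fell between M0 and M2, beside 23.6% and 21.8% of the 11134 eligible genes that rose and fell. In miR-210 KO, 7 rose and 8 fell, beside 18.5% and 18.1% of 11116 eligible genes. All M2 libraries lay above all M0 libraries for 24 members in WT and 11 in miR-210 KO (30.7% and 25.0% of eligible genes), and below for 6 and 9 (30.1% and 25.3%). At an unadjusted p under 0.05 there were 28 members in WT and 21 in miR-210 KO, beside 57.5% and 46.6% of eligible genes. The shares of members called, 50% in WT and 39.5% in miR-210 KO, were near those of all eligible genes, 45.4% and 36.6%. The median log2 fold change of the 38 genes was 0.21 in WT and 0.07 in miR-210 KO, where the median over the eligible genes was 0.005 and -0.01. Of the members, 11 were called in both genotypes, each in the same direction. These were Hk1, Pfkl, Pfkp, Tpi1, Pcx, Idh1, Idh3a, Suclg1, Suclg2, Mdh1 and Acly.

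**Figure D1:**
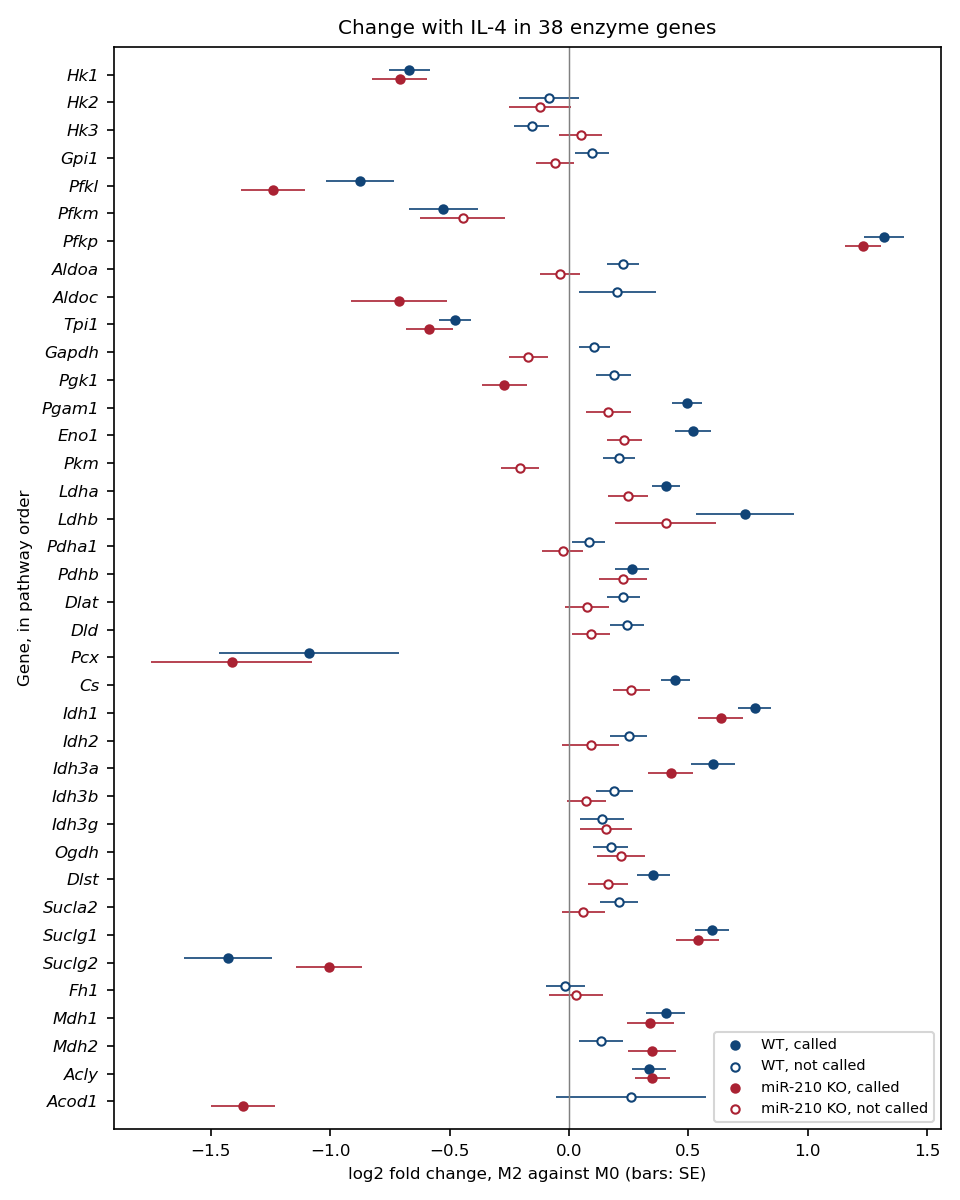
Log2 fold change of M2 against M0 (horizontal axis) of each of the 38 genes in pathway order, in WT (blue) and in miR-210 KO (red). Points are fitted values, bars are standard errors (3 libraries a group), and filled points were called. Pfkp lies farthest to the right at 1.32 in WT and 1.23 in miR-210 KO, while Suclg2, Pcx and Pfkl lie to the left in both genotypes.

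Hexokinases, which trap glucose in the cell as its phosphate, differed in their response. Hk1, the isozyme bound to mitochondria in most tissues (ENSMUSG00000037012, chr10:62104621-62215687, minus strand, GRCm39), had 35.4, 38.4 and 40.8 CPM in WT M0, while miR-210 KO M0 had 34.9, 36.3 and 40.0, WT M2 had 23.6, 24.1 and 24.3 and miR-210 KO M2 had 22.3, 19.8 and 26.2. Every M2 library lay below every M0 library of its genotype, and Hk1 fell in WT (-0.67 ± 0.09, adjusted p = 2.4e-05) and in miR-210 KO (-0.71 ± 0.12, adjusted p = 0.00034). Hk2, the isozyme regulated by insulin and hypoxia, had 53.3, 76.9 and 61.5 CPM in WT M0, while miR-210 KO M0 had 58.2, 75.6 and 68.4, WT M2 had 62.8, 51.7 and 66.4 and miR-210 KO M2 had 56.9, 54.4 and 75. Hk3, the isozyme of myeloid cells, had 117, 105 and 111 CPM in WT M0, while miR-210 KO M0 had 85.5, 102 and 101, WT M2 had 106, 92 and 100.0 and miR-210 KO M2 had 92.6, 103 and 104. The M0 and M2 libraries of these genes overlapped, and neither Hk2 (-0.09 ± 0.13, adjusted p = 0.61 in WT and -0.12 ± 0.13, adjusted p = 0.52 in miR-210 KO) nor Hk3 (-0.16 ± 0.07, adjusted p = 0.094 and 0.05 ± 0.09, adjusted p = 0.71) was called. Hk3 was the main hexokinase RNA per kilobase, with 66.9% ± 3.63 of the summed hexokinase level before IL-4 in WT and 69.8% ± 1.08 after it (SD, n = 3). Hk1 and Hk2 did not differ beyond their spread in WT M0, at 8.92 ± 0.638 and 8.19 ± 1.53 CPM per kilobase of canonical transcript. With gene length taken as the union of all exons, Hk1 had 12.4% and Hk2 22.0% of the sum in WT M0, so their order depends on the length used.

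Phosphofructokinase makes the committed step of glycolysis, and its subunits moved in opposite directions. Pfkp, the platelet-type subunit (ENSMUSG00000021196, chr13:6629798-6698970, minus strand, GRCm39), had 61.7, 72.4 and 74 CPM in WT M0, while miR-210 KO M0 had 64.7, 66.2 and 70.7, WT M2 had 163, 166 and 189 and miR-210 KO M2 had 159.9, 154 and 159. Its M2 libraries were all above its M0 libraries, and it rose by 1.32 ± 0.08 on the log2 scale in WT and 1.23 ± 0.08 in miR-210 KO (adjusted p = 2.8e-08 and 6e-08), which is 2.49-fold and 2.35-fold. Pfkl, the liver-type subunit (ENSMUSG00000020277, chr10:77818084-77845922, minus strand), had 15.9, 21.6 and 17.5 CPM in WT M0, while miR-210 KO M0 had 18.7, 22.6 and 23.2, WT M2 had 9.43, 9.48 and 11.1 and miR-210 KO M2 had 8.94, 9.31 and 9.02. It fell in WT (-0.87 ± 0.14, adjusted p = 0.00019) and in miR-210 KO (-1.24 ± 0.13, adjusted p = 1e-05), with no overlap between M0 and M2. Pfkm, the muscle-type subunit, had 11.7, 10.4 and 12.6 CPM in WT M0, while miR-210 KO M0 had 11.5, 9.90 and 8.37, WT M2 had 7.90, 8.96 and 7.06 and miR-210 KO M2 had 8.21, 6.28 and 7.39. It fell in WT (-0.53 ± 0.15, adjusted p = 0.009), and in miR-210 KO it had -0.44 ± 0.18, adjusted p = 0.074, which was not called although the libraries did not overlap. Per kilobase, the summed phosphofructokinase RNA went from 23.5 ± 2.03 to 44.5 ± 3.45 CPM per kilobase in WT and from 23.3 ± 0.86 to 40.6 ± 0.93 in miR-210 KO. Pfkp was 68.6% ± 1.13 of that sum in WT M0, 66.9% ± 1.06 in miR-210 KO M0, 90.0% ± 0.686 in WT M2 and 90.1% ± 0.276 in miR-210 KO M2. With gene length taken as the union of all exons, the Pfkp share was 60.8% in WT M0 and 86.2% in WT M2.

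**Figure D2:**
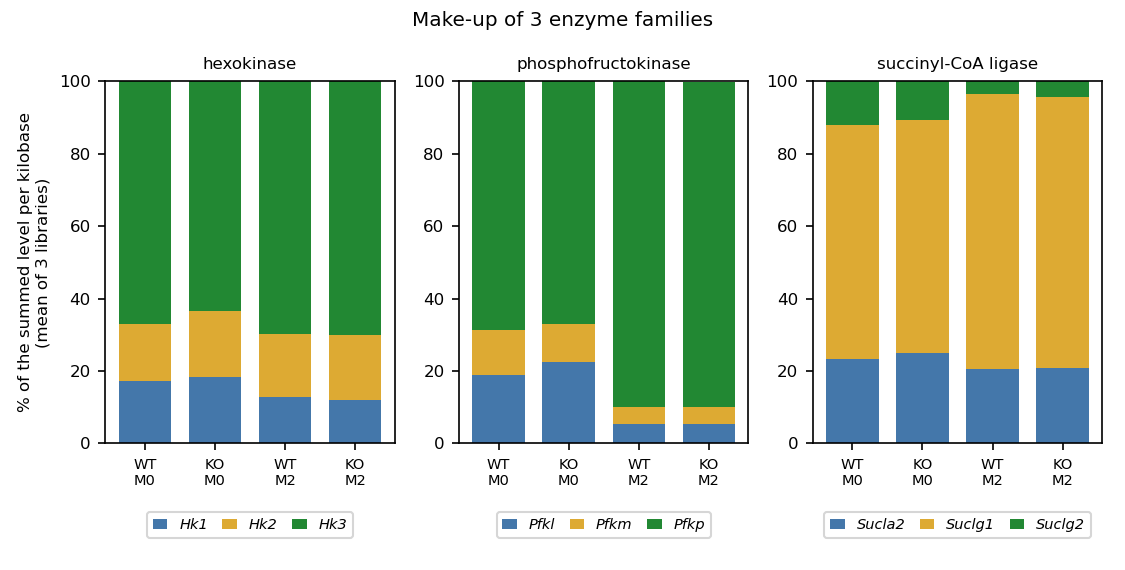
Share of each subunit in the summed level per kilobase of hexokinase, phosphofructokinase and succinyl-CoA ligase (vertical axis, percent, mean of 3 libraries) in the 4 groups. Bars stack to the whole family, and the green Pfkp part grows from 68.6% ± 1.13 (SD) to 90.0% ± 0.686 with IL-4 in WT.

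The promoters of the Pfkp and Pfkl genes are shown because these subunits moved in opposite directions, and that of Ldha because it held the most matches to a hypoxia response core. Each holds 300 bases and runs 5′ to 3′ from 250 bases before to 50 bases after a RefSeq start (RefSeq on GRCm38, placed on GRCm39 by exact match), with capitals marking motif matches on either strand. Searched were ACGTG and also GCGTG, cores bound by the hypoxia-inducible factor, and a STAT6-type site, after the factor activated by IL-4, which is TTC, then 4 bases of any kind, then GAA. The printed starts lie 15 to 281 bases from that of the GENCODE canonical transcript. They lie at chr13:6698758-6699057 (minus strand), chr10:77845592-77845891 (minus strand) and chr7:46494978-46495277 (plus strand).
Pfkp: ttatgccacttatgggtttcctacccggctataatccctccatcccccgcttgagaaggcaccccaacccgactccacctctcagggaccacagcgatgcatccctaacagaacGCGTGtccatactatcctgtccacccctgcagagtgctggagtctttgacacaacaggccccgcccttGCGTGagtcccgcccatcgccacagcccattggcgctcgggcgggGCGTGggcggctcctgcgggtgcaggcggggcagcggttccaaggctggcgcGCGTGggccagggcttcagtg
Pfkl: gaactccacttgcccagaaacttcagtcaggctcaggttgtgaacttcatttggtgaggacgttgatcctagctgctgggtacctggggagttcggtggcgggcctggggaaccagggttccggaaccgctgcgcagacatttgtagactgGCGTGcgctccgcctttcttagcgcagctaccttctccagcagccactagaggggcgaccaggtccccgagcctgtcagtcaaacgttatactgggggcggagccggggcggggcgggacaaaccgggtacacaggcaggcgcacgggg
Ldha: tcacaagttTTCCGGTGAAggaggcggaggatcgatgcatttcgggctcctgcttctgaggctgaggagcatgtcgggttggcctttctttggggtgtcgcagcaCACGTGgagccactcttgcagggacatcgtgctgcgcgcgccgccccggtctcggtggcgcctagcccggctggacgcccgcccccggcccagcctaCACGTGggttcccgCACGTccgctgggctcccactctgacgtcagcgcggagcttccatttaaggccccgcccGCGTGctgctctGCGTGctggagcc
Pfkp held 4 matches to GCGTG and Pfkl 1, and neither held ACGTG or the STAT6-type site. Ldha held 5 matches to ACGTG, counting the overlapping matches of both strands in each CACGTG, with 2 to GCGTG and 1 STAT6-type site. Of the 38 members, 37 had a promoter in the RefSeq table, with 55 starts in all, and 45.5% of these held ACGTG beside 19.6% of the 32851 promoters in the table. GCGTG was in 52.7% beside 32.4%, and the STAT6-type site in 9.09% beside 6.95%. Starts of the same gene were counted singly, and some of their windows overlap, as for Ogdh, Aldoa and Eno1. The same site can therefore enter these shares more than once. The median GC content was 60.3% for the members' promoters and 52.7% for all, its part in these shares was not tested, and a match is not evidence of binding.

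Among the other enzymes of upper glycolysis, Tpi1, triose phosphate isomerase, had 186, 173 and 185 CPM in WT M0, while miR-210 KO M0 had 210.2, 171 and 193, WT M2 had 136, 122 and 130.2 and miR-210 KO M2 had 113, 137 and 133. It fell in WT (-0.48 ± 0.07, adjusted p = 4.5e-05) and in miR-210 KO (-0.59 ± 0.10, adjusted p = 0.00046), with all M2 libraries below all M0 libraries. Aldolase RNA came almost wholly from Aldoa, the muscle-type and ubiquitous isozyme, with 753, 695 and 753 CPM in WT M0, while miR-210 KO M0 had 966, 787 and 863, WT M2 had 836, 824 and 906 and miR-210 KO M2 had 839, 844 and 862. Aldoa had 0.23 ± 0.07, adjusted p = 0.012 in WT, past the p threshold but under the limit on the fold change, and -0.04 ± 0.08, adjusted p = 0.76 in miR-210 KO. Aldoc, the brain-type isozyme, made up 0.529% ± 0.0952 of aldolase RNA per kilobase in WT M0 and had 5.85, 7.64 and 8.02 CPM in WT M0, while miR-210 KO M0 had 11.6, 8.47 and 12.2, WT M2 had 7.90, 8.64 and 8.29 and miR-210 KO M2 had 7.96, 5.34 and 6.39. Aldoc fell in miR-210 KO (-0.71 ± 0.20, adjusted p = 0.014) and was not called in WT (0.20 ± 0.16, adjusted p = 0.33). The call in miR-210 KO was lost without library 3 of miR-210 KO M0 or library 2 of miR-210 KO M2. Gpi1, glucose phosphate isomerase, was called in neither genotype (0.10 ± 0.07 in WT and -0.06 ± 0.08 in miR-210 KO).

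In lower glycolysis, where ATP is made, Pgam1 (phosphoglycerate mutase) and Eno1 (enolase) rose in WT. Eno1 had 168, 193 and 183 CPM in WT M0, while miR-210 KO M0 had 215, 201 and 209.6, WT M2 had 254, 243 and 279.8 and miR-210 KO M2 had 233, 244 and 257. It was higher in every M2 library than in every M0 library, with 0.52 ± 0.08, adjusted p = 6.5e-05 in WT and 0.23 ± 0.07, adjusted p = 0.028 in miR-210 KO, the latter under the limit on the fold change. Pgam1 went from 169.8 ± 6.49 to 238 ± 8.66 CPM in WT (0.50 ± 0.06, adjusted p = 2.1e-05) and had 0.17 ± 0.09, adjusted p = 0.21 in miR-210 KO. Gapdh was called in neither genotype (0.11 ± 0.07 in WT and -0.17 ± 0.08 in miR-210 KO). Pgk1, which makes ATP from bisphosphoglycerate, fell in miR-210 KO by a small step (-0.27 ± 0.09, adjusted p = 0.039) although its M0 and M2 libraries overlapped. That call was lost without library 1 or 3 of miR-210 KO M0 or library 1 or 2 of miR-210 KO M2, and in WT Pgk1 had 0.19 ± 0.07, adjusted p = 0.046. Pkm, pyruvate kinase, had 0.21 ± 0.07, adjusted p = 0.018 in WT and -0.21 ± 0.08, adjusted p = 0.063 in miR-210 KO and was called in neither.

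Lactate dehydrogenase RNA was nearly all Ldha, the subunit that favours lactate. Ldha had 357, 350.2 and 361 CPM in WT M0, while miR-210 KO M0 had 406, 337 and 383, WT M2 had 468, 458 and 484 and miR-210 KO M2 had 429.9, 469 and 438. Its M2 libraries lay above the M0 libraries in both genotypes, and it rose in WT (0.41 ± 0.06, adjusted p = 7.6e-05), while the value in miR-210 KO (0.25 ± 0.08, adjusted p = 0.037) was under the limit on the fold change. Ldhb, the subunit that favours pyruvate, had 3.94, 3.62 and 3.15 CPM in WT M0, while miR-210 KO M0 had 4.57, 3.62 and 4.08, WT M2 had 6.84, 4.74 and 6.19 and miR-210 KO M2 had 5.88, 5.75 and 4.51. Ldhb rose in WT (0.74 ± 0.21, adjusted p = 0.0095), a call lost without library 1 of WT M2, and had 0.40 ± 0.21, adjusted p = 0.16 in miR-210 KO, where the groups overlapped. Ldha was 99% ± 0.121 of the summed lactate dehydrogenase level per kilobase before IL-4 in WT and 98.7% ± 0.216 after it.

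Of the genes for the entry of pyruvate, 4 encode pyruvate dehydrogenase and Pcx encodes pyruvate carboxylase, which refills the cycle with oxaloacetate. Pcx had 1.27, 3.10 and 1.93 CPM in WT M0, while miR-210 KO M0 had 2.45, 2.48 and 1.69, WT M2 had 0.707, 1.26 and 0.990 and miR-210 KO M2 had 0.980, 0.628 and 0.876. Its counts were low, and it fell in WT (-1.09 ± 0.38, adjusted p = 0.03) and in miR-210 KO (-1.41 ± 0.34, adjusted p = 0.0055) with no overlap between M0 and M2. In WT this call was lost without library 2 or 3 of WT M0 or library 1 or 3 of WT M2, and with the DESeq2 Wald test. Pdhb, the E1 beta subunit, rose in WT at the limit on the fold change (0.26 ± 0.07, adjusted p = 0.0086), lost that call without library 2 of WT M0 or library 2 or 3 of WT M2, and had 0.23 ± 0.10, adjusted p = 0.11 in miR-210 KO. Dlat (0.23 ± 0.07 in WT and 0.08 ± 0.09 in miR-210 KO), Dld (0.24 ± 0.07 and 0.09 ± 0.08) and Pdha1 (0.08 ± 0.07 and -0.03 ± 0.09) were not called.

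Within the TCA cycle, Cs, Idh3a, Dlst and Suclg1 rose in WT, Suclg2 fell, and the other 7 genes were not called. Idh3a, a subunit of the mitochondrial isocitrate dehydrogenase that makes NADH, had 24.4, 24.4 and 20.7 CPM in WT M0, while miR-210 KO M0 had 21.5, 23.9 and 23.5, WT M2 had 34.3, 36.2 and 34.3 and miR-210 KO M2 had 30.1, 30.5 and 31.9. It rose in WT (0.60 ± 0.09, adjusted p = 0.00011) and in miR-210 KO (0.43 ± 0.10, adjusted p = 0.0036) with no overlap, whereas Idh3b and Idh3g, its partner subunits, were called in neither genotype (0.19 ± 0.08 and 0.14 ± 0.09 in WT). Cs, which starts the cycle, went from 152 ± 3.79 to 206 ± 6.37 CPM in WT (0.45 ± 0.06, adjusted p = 4e-05), and in miR-210 KO its value of 0.26 ± 0.08, adjusted p = 0.017 lay just under the limit on the fold change, which the DESeq2 fit passed. Dlst, a subunit of oxoglutarate dehydrogenase, rose in WT (0.35 ± 0.07, adjusted p = 0.00091) and had 0.16 ± 0.08, adjusted p = 0.15 in miR-210 KO. Mdh2, the mitochondrial malate dehydrogenase, had 28, 28.2 and 24.0 CPM in WT M0, while miR-210 KO M0 had 22.2, 25.9 and 26.1, WT M2 had 30.2, 28.2 and 29.1 and miR-210 KO M2 had 33, 30.2 and 31.4. It rose in miR-210 KO (0.35 ± 0.10, adjusted p = 0.017), a call lost without library 1 of miR-210 KO M0 or library 1 of miR-210 KO M2, and had 0.13 ± 0.09, adjusted p = 0.26 in WT. Idh2, Ogdh, Sucla2 and Fh1 were called in neither genotype, with log2 fold changes in WT of 0.25 ± 0.08, 0.17 ± 0.07, 0.21 ± 0.08 and -0.02 ± 0.08.

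Succinyl-CoA ligase pairs the alpha subunit Suclg1 with a beta subunit that makes GTP (Suclg2) or ATP (Sucla2), and the subunits diverged. Suclg1 (ENSMUSG00000052738, chr6:73225365-73253894, plus strand) had 40.6, 40.1 and 42.3 CPM in WT M0, while miR-210 KO M0 had 41.2, 36.9 and 41.3, WT M2 had 60.6, 62.1 and 63 and miR-210 KO M2 had 58.7, 60.8 and 53.7. It rose in WT (0.60 ± 0.07, adjusted p = 9.6e-06) and in miR-210 KO (0.54 ± 0.09, adjusted p = 0.00046), with no overlap between M0 and M2. Suclg2 (ENSMUSG00000061838, chr6:95433231-95695866, minus strand) had 14.8, 19.8 and 16.5 CPM in WT M0, while miR-210 KO M0 had 14.7, 15.5 and 14.4, WT M2 had 8.25, 6.01 and 4.70 and miR-210 KO M2 had 6.98, 8.05 and 7.14. It fell in WT (-1.43 ± 0.19, adjusted p = 2.6e-05) and in miR-210 KO (-1.01 ± 0.14, adjusted p = 9.3e-05), with every M2 library below every M0 library. Per kilobase, Suclg2 was 4.97 ± 0.752 and Sucla2 9.65 ± 0.162 CPM per kilobase before IL-4 in WT. After IL-4 they were 1.84 ± 0.523 and 11.1 ± 0.356. These calls held in each fit that left out a library.

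The RefSeq promoters of Suclg1 (chr6:73225238-73225537, plus strand) and Suclg2 (chr6:95695778-95696077, minus strand) are shown in the same way, since subunits of the same enzyme moved apart.
Suclg1: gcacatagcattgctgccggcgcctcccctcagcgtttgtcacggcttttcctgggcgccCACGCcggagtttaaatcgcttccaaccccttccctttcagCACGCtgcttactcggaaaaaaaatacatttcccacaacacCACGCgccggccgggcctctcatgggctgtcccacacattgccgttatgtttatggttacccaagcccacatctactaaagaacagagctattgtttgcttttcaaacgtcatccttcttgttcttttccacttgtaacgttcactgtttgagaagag
Suclg2: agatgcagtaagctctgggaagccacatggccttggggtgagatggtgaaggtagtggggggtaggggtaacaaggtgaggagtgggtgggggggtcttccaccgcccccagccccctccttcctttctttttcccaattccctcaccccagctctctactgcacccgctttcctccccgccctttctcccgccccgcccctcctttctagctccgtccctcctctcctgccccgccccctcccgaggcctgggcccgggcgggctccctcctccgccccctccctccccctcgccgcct
Suclg1 held 3 matches to GCGTG (read as CACGC on the printed strand) and none to the other motifs, and Suclg2 held none of the 3 motifs. The GC content was 51% for Suclg1 and 67.7% for Suclg2.

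Idh1, Acly and Mdh1, cytosolic enzymes that use isocitrate, citrate and malate, rose in both genotypes. Idh1, the isocitrate dehydrogenase that makes NADPH in the cytosol (ENSMUSG00000025950, chr1:65196781-65225721, minus strand), had 252, 224 and 247 CPM in WT M0, while miR-210 KO M0 had 283, 248 and 259, WT M2 had 399, 438 and 398 and miR-210 KO M2 had 438, 433 and 354. It rose to 1.71-fold in WT (0.78 ± 0.07, adjusted p = 6.5e-07) and 1.55-fold in miR-210 KO (0.64 ± 0.10, adjusted p = 0.00017). Acly, which splits citrate into acetyl-CoA and oxaloacetate in the cytosol, had 75, 73.8 and 70.3 CPM in WT M0, while miR-210 KO M0 had 75, 72.2 and 73.2, WT M2 had 85.1, 92.3 and 98.2 and miR-210 KO M2 had 94.5, 94.6 and 91.4. Acly rose in WT (0.34 ± 0.07, adjusted p = 0.0016) and in miR-210 KO (0.35 ± 0.07, adjusted p = 0.0025), and the groups did not overlap for Idh1 or Acly. Mdh1, the cytosolic malate dehydrogenase, rose in WT (0.40 ± 0.08, adjusted p = 0.00095) and in miR-210 KO (0.34 ± 0.10, adjusted p = 0.018), where the call was lost without library 2 or 3 of miR-210 KO M0 or library 1 or 2 of miR-210 KO M2.

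Acod1, which makes itaconate from a TCA cycle intermediate in inflammatory macrophages, is known for its induction by bacterial products (ENSMUSG00000022126, chr14:103284413-103294009, plus strand). It had 42.5, 28.2 and 30.4 CPM in WT M0, while miR-210 KO M0 had 45.8, 34.3 and 45.5, WT M2 had 22.6, 28 and 70.1 and miR-210 KO M2 had 18.4, 15.6 and 14.7. Library 3 of WT M2 stood far above the other WT M2 libraries, while the miR-210 KO M2 libraries were all below every other library. Acod1 fell in miR-210 KO (-1.37 ± 0.14, adjusted p = 4.8e-06, 0.388 of the M0 level) and was not called in WT (0.26 ± 0.32, adjusted p = 0.53).

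**Figure D3:**
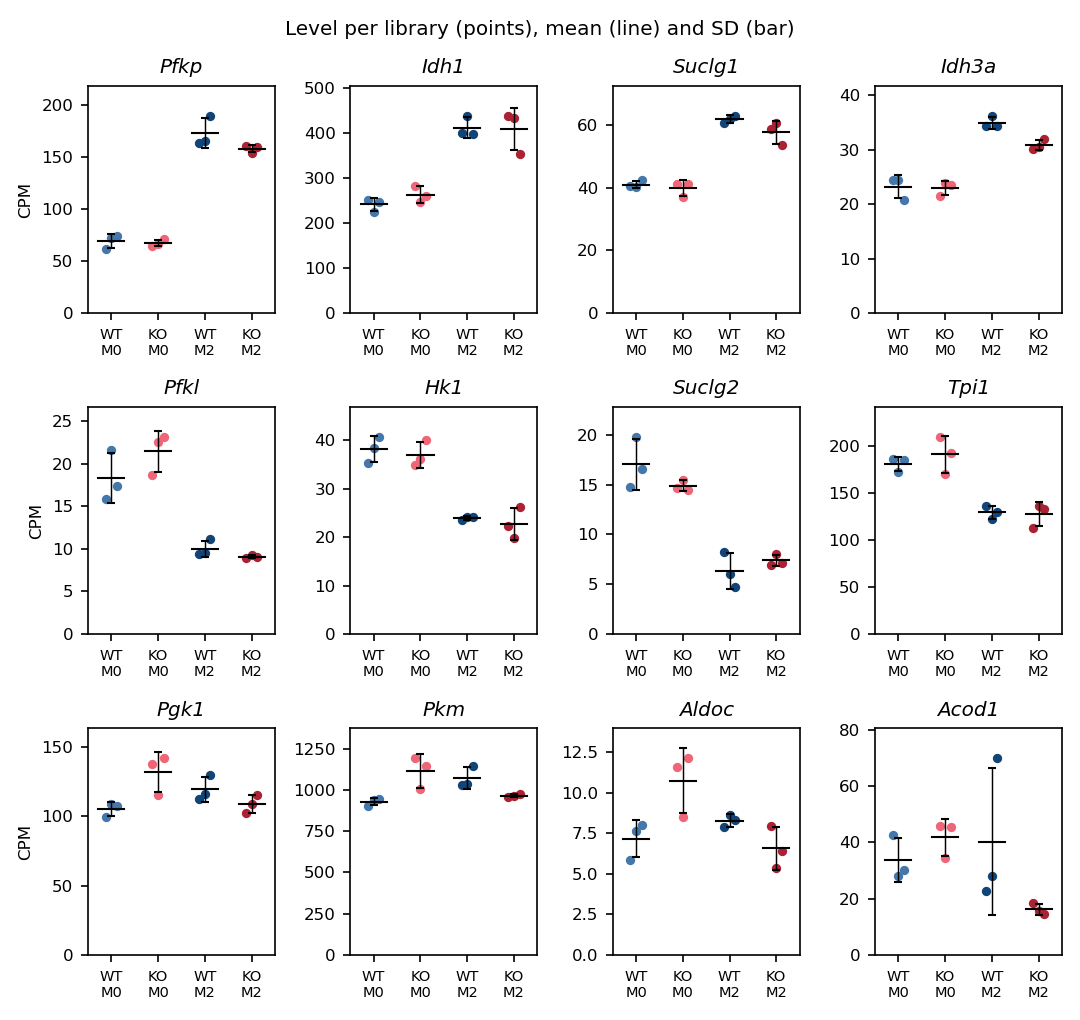
Level in CPM (vertical axis, from 0) of 12 enzyme genes in each library (points), with the group mean (line) and SD (bar, n = 3), for WT and miR-210 KO in M0 and M2. Pfkp, Idh1, Suclg1 and Idh3a lie higher in M2, Pfkl, Hk1, Suclg2 and Tpi1 lower, and library 3 of WT M2 stands at 70.1 CPM for Acod1.

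No member was called between genotypes in either state. In M0, edgeR called 0 of the 38 genes between miR-210 KO and WT, beside 0.461% of all 14089 genes (0.22% higher and 0.241% lower), 8 had an unadjusted p under 0.05, against 10.0% of all genes, and the DESeq2 Wald test also called 0. Of the 38, 28 had a higher fitted level in miR-210 KO, and 12 had all miR-210 KO libraries above all WT libraries, against 7.15% of all genes, while 1 (Hk3) had them below, against 7.28%. The median log2 fold change was 0.08 for the members and 0.0 for all genes. The 5 enzymes of lower glycolysis were all among those above, and each had an unadjusted p under 0.05.

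Pgk1 (ENSMUSG00000062070, chrX:105230706-105247305, plus strand) had 99.2, 109 and 107 CPM in WT M0, while miR-210 KO M0 had 137, 115 and 142, WT M2 had 113, 116 and 129 and miR-210 KO M2 had 103, 109 and 115. Its M0 difference of 0.32 ± 0.10, adjusted p = 0.23 was the one with the smallest p among the members. Pkm (ENSMUSG00000032294, chr9:59563364-59586663, plus strand) had 903, 941 and 944 CPM in WT M0, while miR-210 KO M0 had 1195, 1002 and 1145, WT M2 had 1032, 1035 and 1146 and miR-210 KO M2 had 958, 963 and 976. In M0 it differed by 0.26 ± 0.09, adjusted p = 0.3, with no overlap between genotypes. Aldoc had 0.57 ± 0.20, adjusted p = 0.31, Aldoa 0.25 ± 0.09, adjusted p = 0.37, Pgam1 0.25 ± 0.10, adjusted p = 0.39, Gapdh 0.21 ± 0.09, adjusted p = 0.44 and Eno1 0.20 ± 0.08, adjusted p = 0.44, all with miR-210 KO M0 above WT M0 in every library and none called. Library 2 of miR-210 KO M0 was the lowest of its group for each of these 7 genes. The proliferation markers (5 genes, Mki67 among them) ranged in their sum from 94.4 to 173 CPM in WT M0, and from 141 to 209.8 CPM in the other genotype, and their part in the difference was not tested.

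In M2, edgeR called 0 of 37 genes tested between genotypes, beside 0.98% of all 13980 genes, 3 had an unadjusted p under 0.05, against 10.7% of all genes, and DESeq2 called 0. Pcx was too low to be tested. All miR-210 KO libraries lay above all WT libraries for 1 member (Mdh2), against 7.52% of all genes, and below for 5, against 8.53%. The fitted level was lower in miR-210 KO for 28 of the 37, and the median log2 fold change was -0.02 where that of all genes was 0.002. Acod1 was the nearest to a call, at -1.29 ± 0.31, adjusted p = 0.062, with all miR-210 KO M2 libraries (14.7 to 18.4 CPM) below all WT M2 libraries (22.6 to 70.1 CPM). Without library 3 of WT M2 the difference was -0.64 (adjusted p = 0.044), without library 1 it was -1.57 (adjusted p = 0.013) and without library 2 it was -1.51 (adjusted p = 0.019), so Acod1 passed in each of these fits while its size moved by more than 1.5 times. Acod1 was not called in any fit that left out a library of miR-210 KO M2. Pkm had -0.15 ± 0.05, adjusted p = 0.28, Idh3a -0.18 ± 0.08, adjusted p = 0.44 and Aldoc -0.34 ± 0.17, adjusted p = 0.49. The groups did not overlap for Pkm and Idh3a and overlapped for Aldoc.

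**Figure D4:**
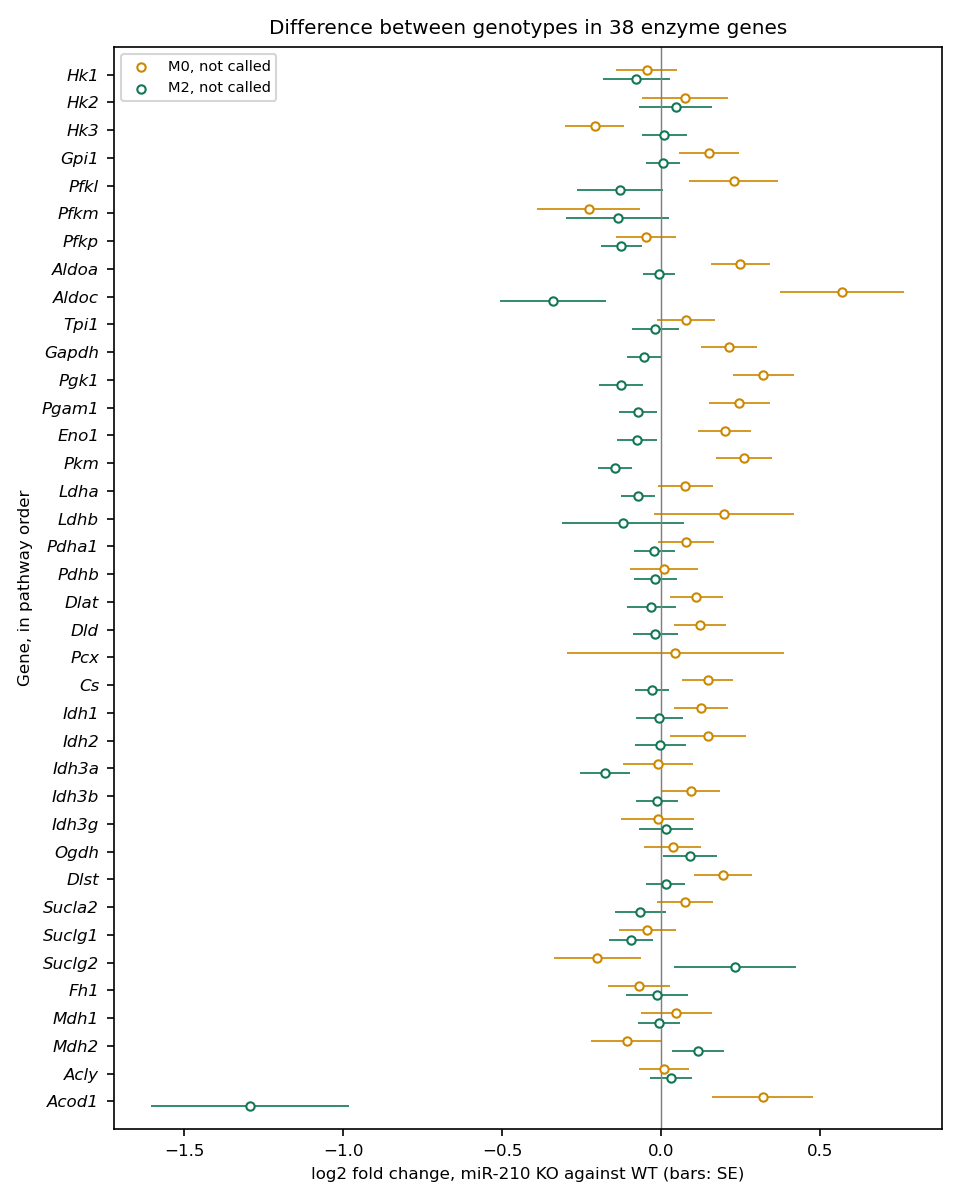
Log2 fold change of miR-210 KO against WT (horizontal axis) of the 38 genes in M0 (orange) and M2 (green), with standard errors (3 libraries a group). Open points were not called, which covers every gene, and Pcx has no M2 value. The lower glycolysis genes from Gapdh to Pkm lie right of 0 in M0 (0.20 to 0.32) and left of 0 in M2, and Acod1 lies at -1.29 in M2.

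Whether the response to IL-4 differed between genotypes was tested as an interaction over all 12 libraries. EdgeR called 0 of the 38 genes, beside 0.0% of 14825 genes, and 8 had an unadjusted p under 0.05, against 8.95% of all genes, so the calls made in WT alone or in miR-210 KO alone are not shown to differ between genotypes. The interaction is the change in miR-210 KO minus that in WT on the log2 scale. It was negative for 30 of the 38, with a median of -0.14 beside -0.002 for all genes. Pkm had -0.41 ± 0.10, adjusted p = 0.15, Pgk1 -0.45 ± 0.12, adjusted p = 0.19, Acod1 -1.62 ± 0.43, adjusted p = 0.19 and Aldoc -0.91 ± 0.26, adjusted p = 0.24. All 5 lower glycolysis enzymes had a negative value with an unadjusted p under 0.05, between -0.45 for Pgk1 and -0.27 for Gapdh. DESeq2 called 1 member (Pkm), the fit without a filter on low counts called 4 (Pkm, Pgk1, Acod1 and Aldoc), and that without library 2 of miR-210 KO M0 called 2 (Pkm and Pgk1). Every other alternative fit called 0. The fit without a filter gave far smaller adjusted p-values than the main fit at nearly the same fold change. For Acod1 it had -1.63, adjusted p = 8.5e-22, although its WT M2 libraries were widely spread. Its calls are given with that limit. The interaction and the pairwise comparisons rest on the same libraries.

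The 73 other genes of glucose and pyruvate metabolism, in a list of transporters, isozymes, regulators and side branches, were followed for context, and 58 were tested for M2 against M0. In WT 21 of them rose and 13 fell, and in miR-210 KO 14 rose and 13 fell. In all, 34 of the 58 tested were called in WT and 27 in miR-210 KO. These are larger shares than the 45.4% and 36.6% of all eligible genes, a difference that was not tested. Over the whole list of 73, which includes genes that were not tested, they are 46.6% and 37%. The counts by subgroup given below are to be read over the genes tested, against the shares of eligible genes. Slc2a6, a glucose transporter of the lysosome, went from 8.53 ± 1.21 to 61.9 ± 14.8 CPM in WT (2.87 ± 0.18, adjusted p = 1.6e-08) and from 6.70 ± 1.14 to 40.3 ± 12 in miR-210 KO (2.60 ± 0.21, adjusted p = 6.8e-07). Eno2, the neuronal enolase, rose from 6.79 ± 1.29 to 36.7 ± 2.73 CPM in WT (2.45 ± 0.13, adjusted p = 4.1e-09) and had 2.06 ± 0.13, adjusted p = 6.9e-08 in miR-210 KO. Slc25a13, an aspartate and glutamate carrier of mitochondria, rose from 11.3 ± 1.39 to 57.8 ± 4.60 CPM in WT (2.36 ± 0.11, adjusted p = 9.3e-10) and had 2.20 ± 0.10, adjusted p = 4.3e-09 in miR-210 KO. These rises were larger than that of any of the 38 members in the same genotype.

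Slc2a3, a high-affinity glucose transporter, fell from 11.2 ± 1.60 to 4.47 ± 0.425 CPM in WT (-1.32 ± 0.17, adjusted p = 2.6e-05) and had -1.69 ± 0.19, adjusted p = 1.3e-05 in miR-210 KO. Pfkfb3, which makes the activator of phosphofructokinase, fell from 192 ± 7.49 to 78.1 ± 4.32 CPM in WT (-1.29 ± 0.07, adjusted p = 3.6e-09) and from 194 ± 14 to 76.2 ± 4.77 in miR-210 KO (-1.35 ± 0.09, adjusted p = 7.2e-08). Eno3, the muscle enolase, fell in WT (-1.05 ± 0.34, adjusted p = 0.02) from a level of 3.59 ± 1.47 CPM, a call lost without library 3 of WT M0 or library 3 of WT M2, and had -1.19 ± 0.26, adjusted p = 0.0032 in miR-210 KO. Gbe1, the glycogen branching enzyme, fell in miR-210 KO from 61.7 ± 4.40 to 22.6 ± 3.46 CPM (-1.44 ± 0.12, adjusted p = 6.7e-07) and in WT by less (-0.82 ± 0.10, adjusted p = 1.8e-05), with an interaction that was not called (-0.62 ± 0.16, adjusted p = 0.19). Of the 9 genes of glucose and lactate transport, 4 rose and 3 fell in WT, and 3 rose and 4 fell in miR-210 KO. Among 12 regulators of these enzymes, of which 11 were tested, 4 rose and 3 fell in WT, and 3 rose and 2 fell in miR-210 KO. Of 7 further TCA cycle genes, of which 6 were tested, 3 rose in WT and 2 in miR-210 KO, with no fall. The pentose phosphate pathway, which makes NADPH from glucose, had 3 of 7 genes higher in WT M2, and in miR-210 KO 2 rose and 2 fell. For gluconeogenesis and glycogen, with 7 of 10 genes tested, 2 rose and 2 fell in WT, and 2 fell in miR-210 KO. Carriers and side branches, with 14 of 15 genes tested, had 4 rises and 3 falls in WT, and 3 rises and 1 fall in miR-210 KO. The 13 other isozymes, of which 4 were tested, had 1 rise and 2 falls in each genotype.

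EdgeR called 0 of the 58 of these genes tested between genotypes in M0, where 8 had an unadjusted p under 0.05, and 0 of 57 in M2, where 11 did, beside 10.0% and 10.7% of all genes. For the interaction it called 0 of 58, and 10 had an unadjusted p under 0.05, beside 8.95% of all genes. The DESeq2 Wald test called 2 in M0, the glucose transporter Slc2a1 (0.44, adjusted p = 0.044) and Pgd of the pentose phosphate pathway (0.31, adjusted p = 0.046), and none in M2. Pgd in M0 was also called by edgeR fitted to all 12 libraries (0.31, adjusted p = 0.023). Over the alternatives that left out no library, 0 to 4 genes were called in M0, 0 to 2 in M2 and 0 to 4 for the interaction. With a library left out, the counts were 0 to 1, 0 to 1 and 0 to 3. For the interaction DESeq2 called 3, which were Slc2a1 (-0.67, adjusted p = 0.029), Pgd (-0.45, adjusted p = 0.0094) and the lactate exporter Slc16a3 (-0.65, adjusted p = 0.011). With edgeR these 3 genes had interaction values of -0.67 ± 0.16, adjusted p = 0.14, -0.44 ± 0.10, adjusted p = 0.12 and -0.65 ± 0.14, adjusted p = 0.11. They were chosen for mention after their values were seen.

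Of the dendritic cell markers, Zbtb46 rose from 0.221 ± 0.0287 to 14.9 ± 3.30 CPM in WT and from 0.386 ± 0.250 to 11 ± 1.49 in miR-210 KO, while Flt3 was at 0 in all M2 libraries. The proliferation markers summed to between 198 and 205 CPM in WT M2 and between 217 and 249.8 in miR-210 KO M2, above WT M0. Singly, Mki67, Top2a and Ccnb1 rose with IL-4 in WT, while Cdk1 and Mcm5 were not called. In miR-210 KO, Mki67 and Top2a rose, Mcm5 fell (-0.34 ± 0.12, adjusted p = 0.039), and Ccnb1 and Cdk1 were not called. Each of these calls in miR-210 KO was lost in some fits that left out a library. The part of the proliferation markers in the changes of the enzyme genes was not tested.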

How the data were processed

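RNA-seq of 12 libraries in 4 groups was analysed. The authors trimmed reads (Trimmomatic), removed duplicate reads (Picard), aligned to GRCm39 (STAR) and counted by strand (featureCounts), and they deposited raw counts for 56941 genes, split over 4 tables by pair of groups. The authors also deposited a signal, the counts divided by a DESeq2 size factor set per pair, used here only as an alternative for levels. How reads with several matches were treated is not given in the sources used here. Columns named the group and a library number, which no label links to a sample. No column of sample values was left aside (0).

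EdgeR 4.0.16 in R 4.3.3 was used for quasi-likelihood tests on the counts (TMM factors, genes kept by filterByExpr). Pairwise tests used 6 libraries and the interaction all 12, the latter with no limit on the fold change. P values were adjusted by Benjamini-Hochberg over all genes tested. The standard error is the log2 fold change divided by the root of F. The procedure was tested on simulated data, with changes larger than those of most members and only in genes with ample counts. How well it finds smaller changes, or changes at low counts, was not tested. Genes were named from GENCODE annotation of GRCm39, which matched 56323 of 56941 identifiers. Levels per kilobase used the Ensembl canonical transcript, a length chosen after seeing the annotation. Promoters are RefSeq windows.

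The members and lists were chosen with earlier results of these data known. Values per library are given for the 6 largest called rises and 6 largest called falls of each M2 against M0 comparison, the 4 smallest p of each genotype comparison, and the isozymes of hexokinase, phosphofructokinase, aldolase and lactate dehydrogenase. Of the other pathway genes, the 3 largest called rises and falls are named. Other members were named to account for all 38. Alternatives were the DESeq2 1.42.0 Wald test, RLE or upper-quartile normalization, no filter or a filter of 50 counts, other fold limits, 1 fit over 12 libraries, other gene lengths, the column number as a block, and each library left out. The result of 1 marker list is not reported here.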

Additional observations from a re-analysis of the deposited data

Results flagged for a closer look

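Pkm had opposite signs for M2 against M0 in the 2 genotypes (0.21 in WT and -0.21 in miR-210 KO on the log2 scale, neither called), with all WT M2 libraries above all WT M0 libraries and all miR-210 KO M2 libraries below all miR-210 KO M0 libraries. The interaction was -0.41 ± 0.10 on the log2 scale, which did not pass the threshold with edgeR (adjusted p = 0.15, unadjusted p = 0.00085). Over the alternatives it passed with DESeq2 (adjusted p = 0.031), without a filter (0.005) and without library 2 of miR-210 KO M0 (0.02). The fit without a filter also gave far smaller adjusted p-values for Acod1 than the main fit, at nearly the same fold change. It did not pass with RLE or upper-quartile normalization, the stricter filter, the column number as a block, either log2 limit, or any other library left out. Of the canonical transcript of Pkm, 34.2% of 50-base stretches occur in another gene.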

How the results depend on the processing

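The column names number the libraries of each group from 1 to 3, and no label ties these numbers to animals. Correlations between same-numbered libraries across 14825 genes ran from -0.268 to 0.336. Between genotypes, the best match had the same number for 2 of 3 libraries in M0 and 1 of 3 in M2. Between states it did for 0 of 3 in WT and 1 of 3 in miR-210 KO, so the numbers are not shown to pair libraries. A fit with this number as a replicate block, chosen after seeing the data, called 13 members higher and 6 lower in WT M2, and 7 higher and 7 lower in miR-210 KO M2. It called 1 lower in miR-210 KO against WT in M2 (Acod1, adjusted p = 0.001), and 0 in M0 or for the interaction. In M2, the count of members called lower in miR-210 KO went from 0 to 1 (Acod1) without a filter on low counts, and was 0 to 1 when a library was left out, with 1 without each of the WT M2 libraries. Without the filter, Acod1 in M2 had -1.29, adjusted p = 6.8e-31, where the main fit had the same fold change with adjusted p = 0.062. Calls of the fit without a filter are to be read with that limit. With a log2 limit of 1, members higher in M2 numbered 1 in WT and 1 in miR-210 KO, and members lower numbered 2 and 4. With no limit on the fold change, 20 members were higher in WT M2. For the interaction, members called lower numbered 1 with DESeq2, 4 without a filter, and 0 to 2 when a library was left out (2 without library 2 of miR-210 KO M0). Leaving out a library gave 12 to 14 members higher and 5 to 6 lower in WT M2, and 6 to 8 higher and 6 to 9 lower in miR-210 KO M2, and the M0 genotype count stayed at 0. Of the members named by the rule, isozymes included, the M2 against M0 log2 fold changes of 3 that were not called changed sign when a library was left out, and ranged from -0.198 to 0.068 for Hk2 in WT (positive without library 2 of WT M0 or of WT M2), from -0.029 to 0.101 for Hk3 in miR-210 KO (negative without library 1 of miR-210 KO M0) and from -0.116 to 0.039 for Aldoa in miR-210 KO (positive without library 1 of miR-210 KO M0). With Pcx at 171 counts over all libraries, depth limited what could be called for it. The cause of these changes was not tested.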
